A study of Mus musculus with 8 samples.

Results

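The liver transcripts described here encode subunits of the mitochondrial respiratory chain and of ATP synthase. Members were the genes in the deposited liver table whose symbols name an NADH dehydrogenase (Nduf with A, B, C, S or V and a number), succinate dehydrogenase (Sdh), ubiquinol-cytochrome c reductase (Uqcr and Cyc1), cytochrome c oxidase (Cox4 to Cox8) or ATP synthase (Atp5) gene. There were 79 members among 11784 genes, of which 36 fell by symbol under complex I, 4 under complex II, 9 under complex III, 13 under complex IV and 17 under complex V. The rule used symbols only and no measured value. It left out Ndufab1, the acyl carrier protein that is also a complex I subunit and is counted here with the assembly factors (log2 fold change 0.19, limma adjusted p = 0.703). It also took in 3 genes that are not subunits, namely Cox4nb, an older name of a subunit of the endoplasmic reticulum membrane complex, Atp5s and Atp5sl, and it placed Ndufa4, now regarded as a subunit of complex IV, under complex I.

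The animals were male C57BL/6J mice that began amino acid-defined diets at 9 weeks of age and were killed 4 months later, after an overnight fast of about 16 hours. Control mice (F129, F2212, F7111 and F2110) received 22% of calories from amino acids and Low AA mice (H1126, H828, H817 and H1315) about 7%, with carbohydrate in place of the amino acids, so that lower amino acid and higher carbohydrate intake cannot be told apart. Each diet had 4 mice, and poly(A) RNA was sequenced from 1 liver sample per mouse. Values are scaled read counts that summed to between 27876664 and 30799385 per mouse. All 8 hepatocyte markers were listed, and their summed values overlapped between diets, at 2779133 to 2979417 on Low AA and 2536867 to 2907256 on Control. One Control mouse, F2212, stood apart, with a value of 36587 for the pancreatic enzyme gene Cela1 against 130 to 288 in the other 7 mice, and with the highest summed acute-phase and blood markers (384740 and 27464).

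In the inner mitochondrial membrane, complex I takes electrons from NADH, complex II takes them from succinate, and both pass them through ubiquinone to complex III, cytochrome c and complex IV, which reduces oxygen. Complexes I, III and IV pump protons as they do so, and ATP synthase, complex V, lets the protons return and makes ATP. Hepatocytes hold many mitochondria and draw on them during fasting for gluconeogenesis, ureagenesis and the oxidation of fatty acids. The complexes are built from products of both the nuclear and the mitochondrial genome. All members are nuclear genes, and 0 of the 13 protein-coding genes of the mitochondrial genome were among the genes listed, so subunits of mitochondrial origin were not analysed here.

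Members were abundant. Of the 79, 72 had a mean value of at least 1000, and 76 lay above the median of all genes. Together they held between 0.982% and 1.25% of all scaled counts in a mouse, the lowest share being that of Control mouse F7111. Per kb of transcript, the median level over members was 2745 in complex I, 4785 in complex II, 5940 in complex III, 5640 in complex IV and 6300 in complex V. The highest per kb was Atp5b, the catalytic beta subunit of ATP synthase, at 20000, followed by Ndufa4 at 16400 and Atp5g3, which encodes the c ring that turns as protons pass, at 15400. The lowest was Cox6b2, a cytochrome c oxidase isoform known mainly from testis, at 77.0. The muscle isoforms Cox6a2, Cox7a1 and Cox8b were not among the genes listed.

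**Figure D1:**
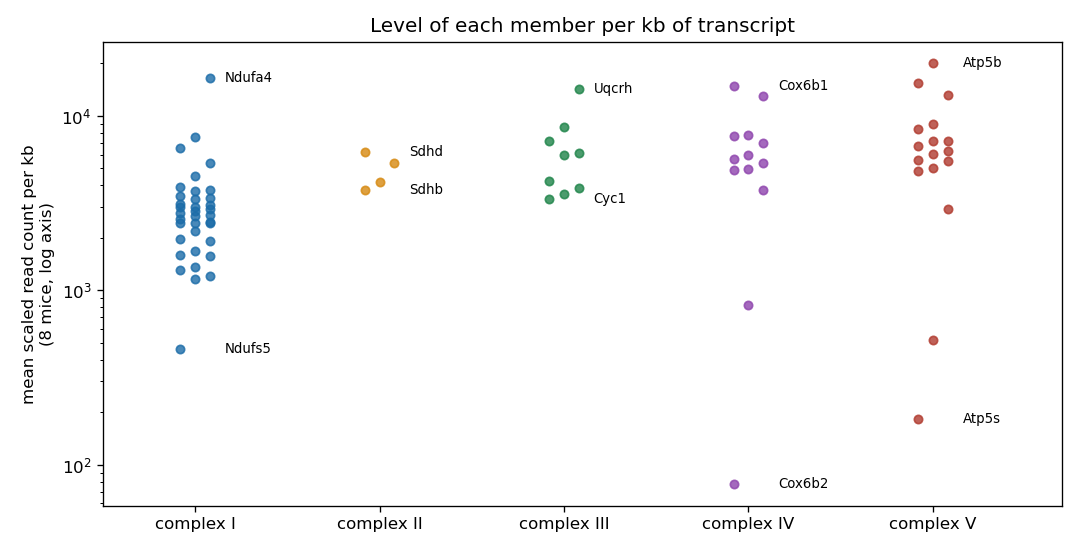
Each point is 1 member, placed by complex, with its mean scaled read count per kb of transcript over all 8 mice on a log axis; the highest and lowest member of each complex are named. Most members lie between 1000 and 20000 per kb, and Cox6b2 at 77.0 and Atp5s at 184 lie far below the rest.

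The first comparison asked whether transcripts of the 5 complexes differed between the diets. In limma, 0 of 79 members passed an adjusted p under 0.05, where 47 of all 11784 genes (0.399%) did, and the smallest adjusted p among members was 0.407. At an unadjusted limma p under 0.05 there was 1 member, Cox7a2l, where 11.8% of all genes passed. The values of the diets did not overlap in 3 members with higher values on Low AA (Cox7a2l, Ndufs1 and Atp5a1), where 3.26% of all genes had such a pattern, and in 0 members with lower values on Low AA, where 3.55% of all genes had that pattern. The differences were small, and 73 members had a log2 fold change under 0.2 in size, a 1.15-fold difference. The precision was enough to bound most of them, as the 95% interval lay within a log2 fold change of 0.5 in either direction, a 1.41-fold difference, for 70 of the 79 members (88.6%, against 51.9% of all genes). In bulk liver, fewer cells of a type and less RNA per cell cannot be told apart. Mice were group housed and their cages are not given, so mice of a diet may share a cage, and the p-values measure the spread between these 8 livers.

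**Figure D2:**
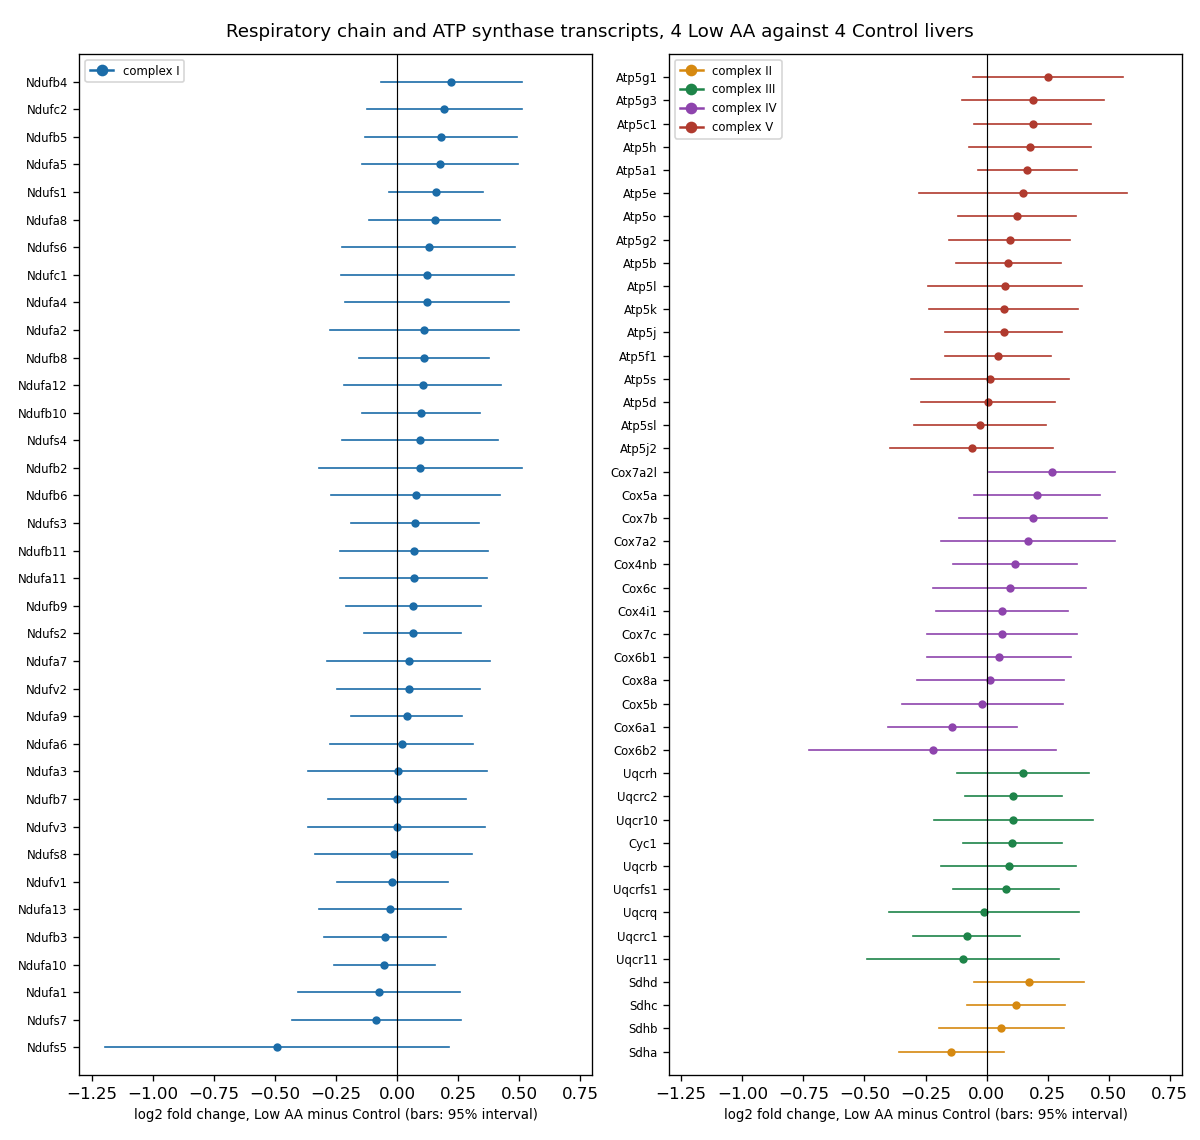
Points give the log2 fold change of each member, Low AA minus Control, from 4 mice per diet, and bars give its 95% interval from limma, with complex I on the left and complexes II to V on the right. The interval includes 0 for 78 of the 79 members, Cox7a2l being the exception.

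More members had higher than lower values on Low AA, and the number depended on single mice. The log2 fold change was positive in 61 of 79 members, against 50.5% of all genes, and its median was 0.074, against 0.0023 over all genes. By complex the median was 0.069 for complex I, 0.091 for complexes II and III, 0.064 for complex IV and 0.089 for complex V. Without Control mouse F7111 31 of the 79 log2 fold changes were positive and the median was -0.021, with medians of -0.029, 0.045, 0.012, -0.0085 and 0.015 for complexes I to V. Without Low AA mouse H1315 47 were positive and the median was 0.030, with medians of 0.022, 0.034, 0.053, 0.043 and 0.030 for complexes I to V. With values corrected for length and GC content of transcripts, 62 were positive and the median was 0.074. F7111 deviated less in these corrected values but was still the lowest mouse (-0.097). The correction was not combined with leaving a mouse out.

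Promoters of members were read from RefSeq sequences on GRCm38, each running from 250 bases before to 50 after the start, and 64 of the 79 members had one. The motifs of 4 factors or factor families known to act on respiratory chain genes were searched on both strands. The NRF1 motif GCGCANGCG was in 20 of the 64 (31.2%), against 15.4% of the 9281 listed genes with a promoter and 7.03% of all promoters by symbol. The motif CCGGAAG of ETS factors, GABP among them, was in 16 (25%, against 20.3% and 9.93%). The YY1 motif AAGATGGC was in 10 (15.6%, against 5.41% and 3.19%), and the ERR motif TCAAGGTCA in 2, Sdhd and Atp5g3 (3.12%, against 0.323% and 0.466%). The median log2 fold change was 0.096 for members with the NRF1 motif and 0.066 for those without. It was 0.070 and 0.084 for the ETS motif, 0.055 and 0.073 for the YY1 motif, and 0.18 and 0.071 for the ERR motif, with 2 members. These matches describe letters in a window, and none is evidence of binding in these livers.

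Upstream sequence is shown for the members with the highest log2 fold change in complexes I, III and IV, with bases of annotated exons left out and motif matches in capitals. Ndufb4 is shown for its NRF1 match, which lies 191 bases before the start (chr16:37654454-37654568, minus strand, with 2 further matches nearer the start). Uqcrh is shown for an ETS match 10 bases before the start (chr4:116075072-116075268, minus strand). Cox7a2l is shown as the member with the smallest p, and the region holds none of the 4 motifs (chr17:83514334-83514533, minus strand). It lies before the RefSeq start, while a further annotated transcript of Cox7a2l starts upstream of it, so that the region is intronic for that transcript and inside the gene bounds given with the values.
Ndufb4: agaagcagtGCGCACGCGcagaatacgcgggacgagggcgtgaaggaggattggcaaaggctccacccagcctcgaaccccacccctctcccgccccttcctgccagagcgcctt
Uqcrh: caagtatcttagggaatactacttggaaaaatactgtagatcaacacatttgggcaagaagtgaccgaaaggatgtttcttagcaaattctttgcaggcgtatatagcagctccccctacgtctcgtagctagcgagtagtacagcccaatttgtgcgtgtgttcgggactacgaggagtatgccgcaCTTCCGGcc
Cox7a2l: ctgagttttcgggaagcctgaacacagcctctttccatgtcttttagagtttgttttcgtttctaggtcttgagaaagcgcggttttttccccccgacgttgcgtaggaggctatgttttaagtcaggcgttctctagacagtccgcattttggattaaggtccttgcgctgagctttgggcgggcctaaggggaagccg

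Complex I is the largest entry point of electrons, and its 7 core subunits of nuclear origin hold the flavin and the iron-sulphur clusters. Ndufs1, the largest core subunit, lies on chromosome 1 (63143596 to 63176833, GRCm38). Its values were 4267, 3724, 4082 and 4385 in the Control mice F129, F2212, F7111 and F2110 and 4677, 4447, 4649 and 4599 in the Low AA mice H1126, H828, H817 and H1315. Every Low AA mouse lay above every Control mouse, by a narrow margin over F2110, and the log2 fold change was 0.16 (standard error 0.09, limma adjusted p = 0.523). Ndufv1, which binds NADH and the flavin, had values of 4525, 3996, 3884 and 3771 on Control and 4073, 3696, 3693 and 4514 on Low AA, in the same order of mice. Its groups overlapped throughout (log2 fold change -0.019, limma adjusted p = 0.964). Over these 7 nuclear core subunits 4 log2 fold changes were positive, with a median of 0.047, and over the 29 accessory subunits 23 were, with a median of 0.076.

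The accessory subunit with the highest log2 fold change was Ndufb4, at 1633, 1530, 1081 and 1401 on Control and 1518, 1600, 1661 and 1737 on Low AA. F7111 was the lowest mouse, and F129 and F2212 lay within the Low AA range (log2 fold change 0.22, standard error 0.13, limma adjusted p = 0.567). Of the 100-base windows of Ndufb4 33.4% are also found in transcripts of another gene, so its count is uncertain. The lowest log2 fold change of all 79 was that of Ndufs5, an accessory subunit whose values were 578, 237, 208 and 293 on Control and 310, 206, 230 and 145 on Low AA. F129 stood well above the other Control mice, the groups overlapped, and the log2 fold change was -0.49 with a wide standard error of 0.32 (limma adjusted p = 0.611). Of the 100-base windows of Ndufs5 transcripts 23.0% are also found in transcripts of another gene, so its count is uncertain, and at 461 per kb it was the lowest member of complex I.

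Complex II is also the succinate dehydrogenase of the citric acid cycle and has no mitochondrially encoded subunit. Sdha, its flavoprotein, had values of 13358, 12897, 13364 and 11579 on Control and 12558, 10663, 11926 and 11202 on Low AA. It was the member of complex II with a negative log2 fold change, -0.14 (standard error 0.10, limma adjusted p = 0.629), and its groups overlapped because F2110 lay below 2 of the Low AA mice. Sdhb, the iron-sulphur subunit, had values of 4403, 4238, 3579 and 4530 on Control and 4214, 3802, 4446 and 5021 on Low AA (log2 fold change 0.060, limma adjusted p = 0.893). Sdhd, a membrane anchor, had values of 7755, 6973, 6507 and 7593 on Control and 7825, 7312, 8557 and 8849 on Low AA. Its log2 fold change was 0.17 (standard error 0.10, limma adjusted p = 0.559), and only H828 lay within the Control range. Whether Sdha and Sdhd differed from each other in their response was not tested.

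Complex III passes electrons from ubiquinol to cytochrome c. Uqcrfs1, the Rieske iron-sulphur protein, had values of 6249, 5355, 5009 and 5992 on Control and 5842, 5781, 5903 and 6275 on Low AA. Cyc1, cytochrome c1, had values of 5031, 4918, 4555 and 4926 on Control and 5035, 4805, 5299 and 5800 on Low AA. Their log2 fold changes were 0.079 and 0.11 (limma adjusted p = 0.820 and 0.733), and both overlapped between diets. Uqcrh, the hinge protein, which helps cytochrome c1 meet cytochrome c, had the highest log2 fold change of the complex, at 5950, 6223, 4507 and 5077 on Control and 5514, 5730, 6032 and 6739 on Low AA (log2 fold change 0.15, limma adjusted p = 0.708). Uqcr11, a small subunit, had the lowest log2 fold change, at 3444, 3506, 1987 and 2508 on Control and 2371, 2537, 2571 and 2976 on Low AA (log2 fold change -0.097, limma adjusted p = 0.889). In Uqcr11 the 4 Low AA mice lay inside a Control range that F7111 and F2212 set at its ends.

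Complex IV holds the member with the smallest p. Cox7a2l, also called SCAF1, is known for joining complexes III and IV into supercomplexes, and C57BL/6J mice are known to carry a short form of the protein that is impaired in this. It lies on chromosome 17 (83501918 to 83517330, GRCm38). Its values were 3930, 3880, 3138 and 3749 on Control and 4047, 4032, 4435 and 5222 on Low AA. Low AA mice H1126 and H828 lay close above the highest Control mouse and H1315 lay well above it, giving a log2 fold change of 0.27 (standard error 0.12, 95% interval 0.010 to 0.53, limma unadjusted p = 0.0430, adjusted p = 0.407). Of its 100-base windows 11.7% occur in transcripts of another gene. Cox4i1 and Cox5a are the first nuclear subunits to join the core. Cox4i1 had values of 10227, 10889, 8085 and 8671 on Control and 9191, 9607, 9294 and 11358 on Low AA (log2 fold change 0.064, limma adjusted p = 0.893). Cox5a had values of 3520, 3748, 3008 and 3236 on Control and 3732, 3392, 3894 and 4596 on Low AA (log2 fold change 0.20, standard error 0.12, limma adjusted p = 0.548). Both overlapped between diets, with H1315 the highest mouse. Cox6b2 had the lowest log2 fold change of the complex, at 34, 32, 33 and 45 on Control and 33, 37, 22 and 32 on Low AA (log2 fold change -0.22, limma adjusted p = 0.778).

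ATP synthase consists of the F1 head that makes ATP, a c ring in the membrane, a peripheral stalk and further membrane subunits. All 5 F1 genes, all 4 stalk genes and all 3 c ring genes had positive log2 fold changes, with medians of 0.15, 0.097 and 0.19, and none of them passed the limma test across all genes. Without F7111, 3 of the 5, 3 of the 4 and all 3 were positive, with medians of 0.066, 0.047 and 0.095, and Atp5d, Atp5e and Atp5f1 turned negative. Without H1315 Atp5d alone of these 12 turned negative. Atp5a1, the F1 alpha subunit, had values of 32604, 29707, 30225 and 29700 on Control and 33852, 33064, 34705 and 35531 on Low AA. The groups did not overlap, and the log2 fold change was 0.17 (standard error 0.09, limma adjusted p = 0.526). Atp5b, its catalytic partner, had values of 38750, 37622, 35377 and 36625 on Control and 37834, 36964, 40974 and 42162 on Low AA (log2 fold change 0.089, limma adjusted p = 0.790). Atp5c1, the gamma subunit that forms the rotating shaft, had values of 7928, 7857, 6235 and 7357 on Control and 7873, 7839, 8393 and 9299 on Low AA (log2 fold change 0.19, limma adjusted p = 0.551). In Atp5b and Atp5c1 H817 and H1315 lay above every Control mouse and H1126 and H828 did not.

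The c ring is encoded by 3 genes that differ in their import sequences and give the same mature protein. Atp5g1 had values of 3361, 4133, 3230 and 3347 on Control and 4433, 3237, 4336 and 4857 on Low AA. All Low AA mice but H828 lay above every Control mouse, and H828 was the second lowest of the 8 (log2 fold change 0.25, standard error 0.14, limma adjusted p = 0.528). Atp5g2 had values of 3264, 3445, 2634 and 3003 on Control and 3193, 3154, 3058 and 3749 on Low AA (log2 fold change 0.094, limma adjusted p = 0.812). Atp5g3 had values of 10676, 12011, 8387 and 10188 on Control and 11025, 10409, 11799 and 13720 on Low AA (log2 fold change 0.19, limma adjusted p = 0.644). All of the windows of Atp5g2 and 48.1% of those of Atp5g1 occur in transcripts of other genes, so how reads were divided over these copies is uncertain. Atp5j2, a small membrane subunit, had the lowest log2 fold change of complex V, at 1860, 1935, 1229 and 1481 on Control and 1552, 1338, 1575 and 1690 on Low AA (log2 fold change -0.061, limma adjusted p = 0.921).

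Members moved together from mouse to mouse, and more than they did with diet. The mean deviation of the 79 members from their 8-mouse means, on the log2 scale, was 0.095 in F129, 0.144 in F2212, -0.298 in F7111 and -0.067 in F2110 on Control, and -0.00087 in H1126, -0.075 in H828, 0.022 in H817 and 0.181 in H1315 on Low AA. The SD between mice was 0.199 on Control and 0.108 on Low AA, while the diet means were -0.032 and 0.032. F7111 was the lowest of the 8 mice in 66 of 79 members (83.5%), against 19.4% of all genes. Among the groups compared below, F7111 was also lowest by mean deviation in mitochondrial (-0.251) and cytosolic (-0.506) ribosomal protein genes. The same held for citric acid cycle genes (-0.167), assembly factors (-0.21) and ATP export genes (-0.198). It did not hold for electron carriers (-0.040) or regulators (0.074). H1315 was the highest in 41 members (51.9%, against 10.1% of all genes) and F2212 in 27 (34.2%, against 20.4%). Complex II departed from this in part, with F7111 at -0.115 and H828 the lowest at -0.122. The hepatocyte marker sum of F7111, 2907256, was the highest of the Control mice, but Alb alone made up 1665949 of it. The mean deviation of the hepatocyte markers was -0.035, -0.167, -0.00086 and 0.042 in F129, F2212, F7111 and F2110. F2212 also carried the Cela1, acute-phase and blood values above. All 8 macrophage markers had positive log2 fold changes, with a median of 0.23, while their sums overlapped, at 7979 to 11333 on Low AA and 7524 to 11136 on Control. The macrophage mean deviation was -0.171, 0.250, -0.371 and -0.229 in F129, F2212, F7111 and F2110. It was 0.270, -0.119, 0.109 and 0.261 in H1126, H828, H817 and H1315. F7111 was thus the lowest mouse, as in the members, but H1126 was the highest and F129 was low, unlike in the members. Endothelial markers were also lowest in F7111 (-0.286), and they were highest in F2110 (0.193). The 4 listed cholangiocyte markers and the 4 listed blood markers all had negative log2 fold changes, with sums of 826 to 1316 and 9211 to 13541 on Low AA and 1124 to 2265 and 7206 to 27464 on Control. Of the 6 stellate markers 5 had negative log2 fold changes, Col1a1 being the lowest (-1.07, limma adjusted p = 0.148, without overlap). The stellate sums overlapped, at 7716 to 9666 on Low AA and 7509 to 9777 on Control. Of the 5 acute-phase markers 4 had negative log2 fold changes. The part of any of these in the member values was not tested.

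**Figure D3:**
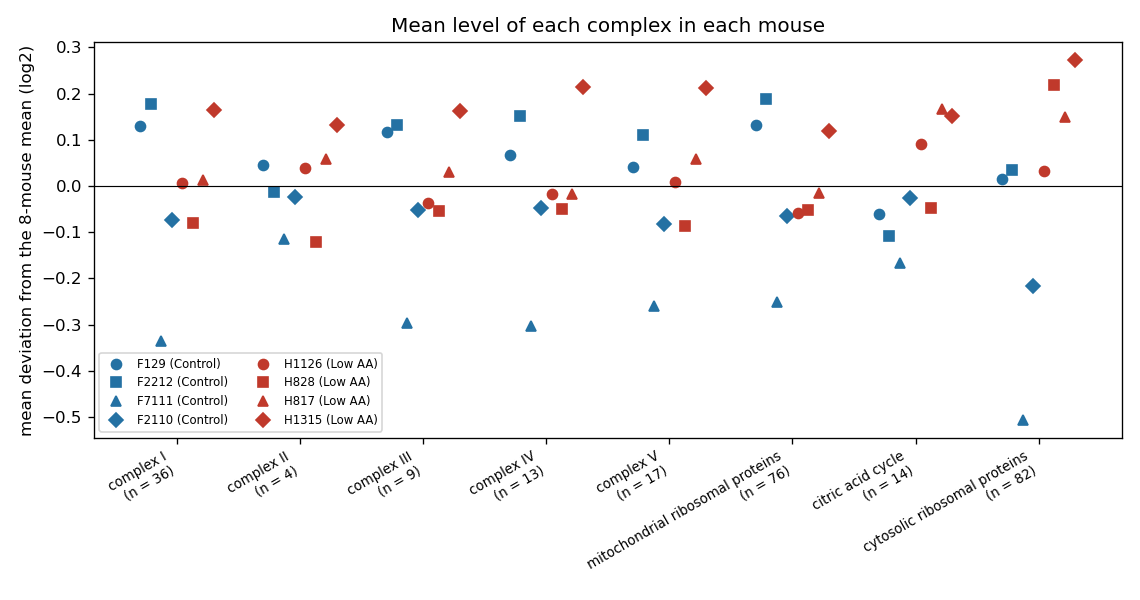
For each complex, and for 3 other gene groups, each point is 1 mouse and gives the mean over the group's genes of the log2 value minus the 8-mouse mean, with Control in blue and Low AA in red. F7111 is the lowest mouse in complexes I, III, IV and V, at -0.336 in complex I, and the diets overlap in all 5 complexes.

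Members have short transcripts, with a median of 691 bases against 2490 over all genes, and the deviation of a mouse varied with transcript length. The length classes were chosen after values had been seen. In F7111 the median deviation over all genes was -0.277 for transcripts under 700 bases, -0.144 from 700 to below 1500, -0.021 from 1500 to below 3000 and 0.126 from 3000 bases. In F2212 it went the other way, at 0.198, 0.174, 0.045 and -0.149. Members followed the same order, at -0.357 in F7111 for the 40 members under 700 bases, -0.250 for the 28 in the next class and -0.112 for the 11 from 1500 to below 3000 bases. Log2 values corrected in each mouse by a smooth fit on length and GC content brought the mean member deviation of F7111 to -0.097 and that of F2212 to -0.025. F7111 was still the lowest mouse. The median log2 fold change was then 0.074, with 62 members positive, 9 without overlap, 5 at an unadjusted limma p under 0.05 and 0 at an adjusted p under 0.05 (smallest 0.156, for Cox7a2l). The origin of the length dependence was not tested.

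**Figure D4:**
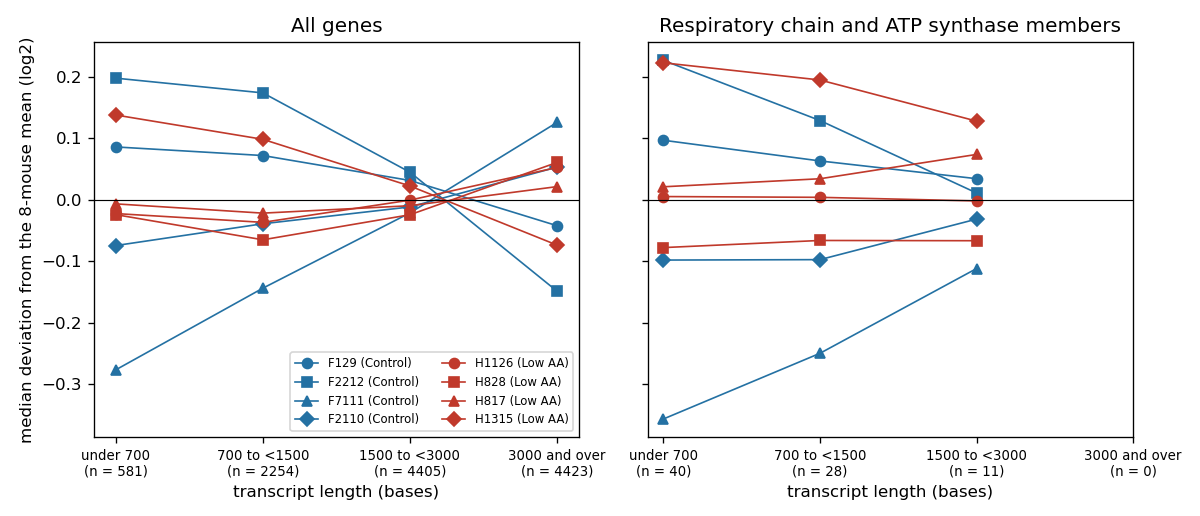
Lines join the median deviation of each mouse from the 8-mouse mean, on the log2 scale, in classes of transcript length, for all genes on the left and for the members on the right. F7111 runs from -0.277 in the shortest class to 0.126 in the longest over all genes, F2212 runs the opposite way, and no member is in the longest class.

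Some genes around the complexes had larger log2 fold changes than any subunit, though again 0 genes of the lists for carriers, ATP export, assembly and regulators passed the limma test after adjustment over all genes. These 4 lists together with the citric acid cycle were written from general knowledge. Of 21 electron carriers and other entry points into the chain, 3 had an unadjusted limma p under 0.05, all of them higher on Low AA, where 11.8% of all genes passed in either direction. In 4 genes (Etfdh, Gpd2, Cycs and Coq6) values were higher on Low AA without overlap, where 3.26% of all genes were, and the list median was 0.080. Etfdh, the dehydrogenase that hands electrons from fatty acid and amino acid oxidation to ubiquinone, had values of 17617, 17064, 17179 and 17361 on Control and 23542, 22944, 22628 and 22232 on Low AA. The gap between the diets was far wider than the spread within either (log2 fold change 0.40, standard error 0.08, limma adjusted p = 0.0831). Gpd2, the mitochondrial glycerol 3-phosphate dehydrogenase, had values of 1042, 1272, 1851 and 1234 on Control and 2754, 2112, 2250 and 1875 on Low AA (log2 fold change 0.75, standard error 0.18, limma adjusted p = 0.117). Cycs, cytochrome c itself, had values of 7752, 5357, 5011 and 6995 on Control and 8385, 7904, 8660 and 7908 on Low AA (log2 fold change 0.41, standard error 0.14, limma adjusted p = 0.273). In Gpd2 and Cycs the highest Control mouse came within a few percent of the lowest Low AA mouse. Etfdh, Gpd2 and Coq6 were named after their values had been seen.

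**Figure D5:**
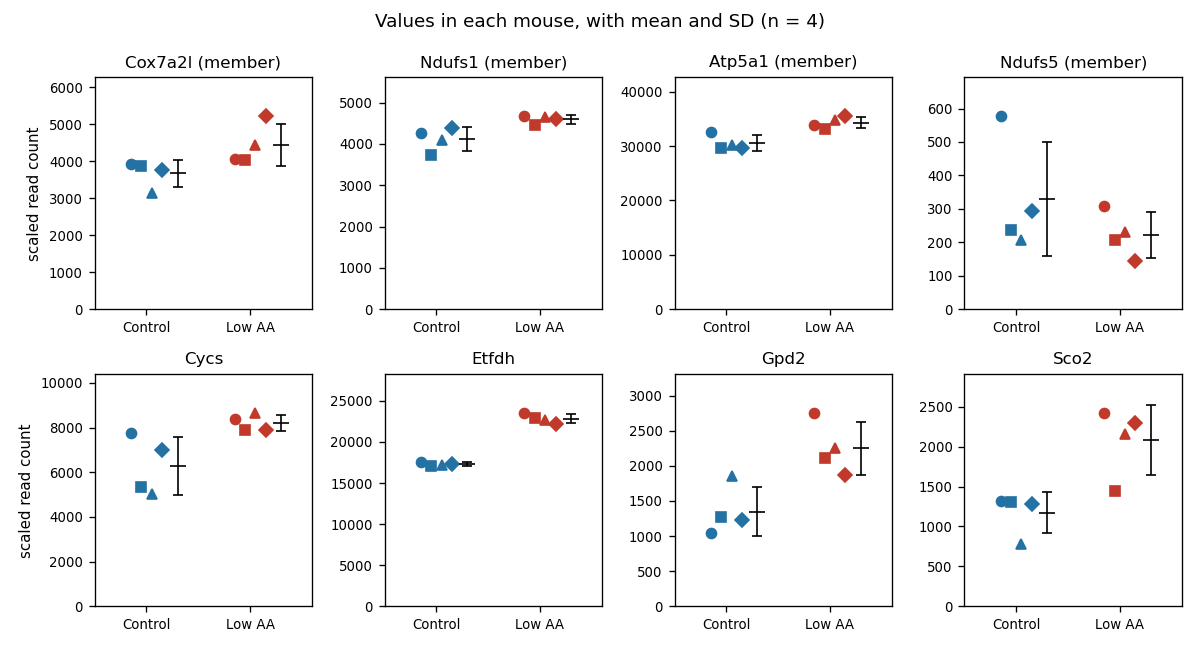
Scaled read counts of 4 members (Cox7a2l, Ndufs1, Atp5a1 and Ndufs5) and 4 surrounding genes (Cycs, Etfdh, Gpd2 and Sco2) in each mouse, Control in blue and Low AA in red, with the mean and SD of each diet (n = 4) in black and each axis starting at 0. The diets do not overlap in 7 of these genes, Ndufs5 being the exception, and the gap relative to the spread is widest for Etfdh.

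Of 9 genes for ATP export and uncoupling, 3 had an unadjusted limma p under 0.05 (11.8% of all genes) and higher values without overlap on Low AA (3.26% of all genes), and the median log2 fold change was 0.14. Slc25a5, the adenine nucleotide translocase that exchanges ADP for ATP, had values of 11987, 11433, 12493 and 11684 on Control and 13809, 13506, 14273 and 16338 on Low AA (log2 fold change 0.28, standard error 0.09, limma adjusted p = 0.266). The other 2 were the outer membrane channels Vdac2 and Vdac3, with log2 fold changes of 0.31 and 0.22 (limma adjusted p = 0.220 and 0.421). Ucp2, an uncoupling protein family member, gave 0.15 (limma adjusted p = 0.734).

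Of 52 assembly factors 51 were listed, with a median log2 fold change of -0.015 and with 3 at an unadjusted limma p under 0.05, a smaller share than the 11.8% of all genes. One gene was higher and 1 lower without overlap, where 3.26% and 3.55% of all genes were, so these counts do not stand above those of all genes. The 2 genes, named after their values had been seen, act on complex IV and lay in opposite directions. Sco2, which delivers copper, had values of 1322, 1304, 786 and 1282 on Control and 2423, 1441, 2153 and 2295 on Low AA (log2 fold change 0.83, standard error 0.21, limma adjusted p = 0.133). Surf1, needed for early assembly, had values of 970, 1053, 797 and 801 on Control and 522, 705, 714 and 772 on Low AA (log2 fold change -0.42, standard error 0.15, limma adjusted p = 0.279).

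Of 21 regulators of nuclear and mitochondrial gene expression 20 were listed, with a median log2 fold change of 0.019 and with 1, Esrra, at an unadjusted limma p under 0.05, a smaller share than the 11.8% of all genes. Ppargc1a, a coactivator of mitochondrial biogenesis that fasting induces in liver, varied widely, at 477, 465, 1828 and 1686 on Control and 1191, 1612, 794 and 1831 on Low AA. The Control mice fell into a low pair, F129 and F2212, and a high pair, F7111 and F2110, and the mean member deviation was positive in the first pair and negative in the second. Of the Low AA mice, H1126, H828 and H817 kept to this inverse order and H1315 did not. H1315 had the highest Ppargc1a value of all mice, 1831, and also the highest mean member deviation, 0.181. In H1126, H828 and H817, with Ppargc1a at 1191, 1612 and 794, the mean member deviation was -0.00087, -0.075 and 0.022. The relation between Ppargc1a and the members was not tested. Its log2 fold change was 0.51 with a standard error of 0.47 (limma adjusted p = 0.751). Esrra, the estrogen-related receptor alpha, had values of 695, 740, 625 and 813 on Control and 833, 823, 957 and 1012 on Low AA, without overlap (log2 fold change 0.34, standard error 0.12, limma adjusted p = 0.276). Nrf1, Gabpa, Tfam and Ppargc1b gave log2 fold changes of 0.026, 0.12, 0.16 and 0.072, and the diets overlapped in each.

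Beside these, the 14 citric acid cycle genes had a median log2 fold change of 0.14, with 5 at an unadjusted limma p under 0.05, where 11.8% of all genes passed. Idh3a at 0.71 and Cs at 0.31 (limma adjusted p = 0.102 and 0.226) were among those with higher values on Low AA without overlap, and were named after their values had been seen. The 76 mitochondrial ribosomal protein genes had a median of 0.0087, with 40 positive and none called. All 82 cytosolic ribosomal protein genes had positive log2 fold changes, with a median of 0.32 and 1 called (0.399% of all genes), and F7111 was their lowest mouse too. Of these 82 genes 46 had an unadjusted limma p under 0.05, where 11.8% of all genes passed. In 26 of them values were higher on Low AA without overlap, where 3.26% of all genes were. Whether the members differed from these groups was not tested.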

How the data were processed

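Libraries were stranded, poly(A)-selected TruSeq preparations of mouse liver RNA. The authors deposited 1 table with a signal per gene and mouse, a read count scaled and rounded to a whole number, beside their own FDR (a q-value) and a signed fold change that is a score; the last 2 were not used. For the scaling method, no description was found in the sources used here. The submitters' processing notes name bcl2fastq 1.8.2, STAR 2.5.0a, RSEM 1.2.6, edgeR 3.10.5, R 3.2.1 and mm10, with no roles. Because the values are not raw counts, log2(value + 1) was compared between diets with limma 3.58.1 in R 4.3.3, with its trend option, and p-values were adjusted by Benjamini-Hochberg across the 11784 genes (threshold 0.05). For low values, the added 1 makes log2 fold changes too small. Transcript lengths (the lower median over the protein-coding transcripts of a gene) and shared 100-base windows came from GENCODE annotation of GRCm38, the assembly of mm10. The procedure was tested on simulated data.

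Members and lists were chosen with earlier results of these data known. Values by mouse were given for the 8 members with the smallest p, the highest and lowest log2 fold change of each complex, and 13 catalytic or defining subunits. Other genes are said to be named after their values were seen. Alternatives were other pseudocounts (0.1 and 5), the 8000 genes with the highest mean, equal column totals or upper quartiles, no trend, robust moderation, a length and GC correction (loess, span 0.3) and each mouse left out in turn.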

Additional observations from a re-analysis of the deposited data

Results flagged for a closer look

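Among 74 groups of 4 mice examined for a mouse far from the others, 2 were flagged, where chance flags about 1 in 20. For Atp5g1 the gap between Control mouse F2212 and the nearest Control mouse was 0.839 of the range of the 4 Control mice. For the mean of complex IV the gap between Low AA mouse H1315 and the nearest Low AA mouse was 0.875 of the range. The critical value for 4 mice is 0.829.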

How the results depend on the processing

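No member was called under any alternative, also at an adjusted p under 0.1. The number of members at an unadjusted limma p under 0.05, 1 in the analysis reported, was 0 with equal upper quartiles and with no mean-variance trend, 5 with the length and GC correction and 0 to 2 with a mouse left out (0 without F7111, F2110, H817 or H1315, and 2 without F2212 or H828). Members without overlap numbered 3, against 4 with equal column totals, 0 with equal upper quartiles, 9 with the length and GC correction and 3 to 8 with a mouse left out (8 without H828). Positive members ranged from 31 without F7111 to 71 without F129. The median over all members was 0.030 without H1315, 0.12 without F129, 0.12 without H828 and 0.14 without F2212. For both scalings and for the correction the cause of the shift in counts was not tested.

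Ndufv1 turned to 0.026 under the length and GC correction. With a mouse left out, log2 fold changes changed sign for Atp5j2 (-0.19 to 0.030), Cox4i1 (-0.0085 to 0.13), Ndufv1 (-0.080 to 0.036), Sdhb (-0.013 to 0.12), Uqcr11 (-0.26 to 0.014), Gabpa (-0.034 to 0.24), Nrf1 (-0.041 to 0.060) and Ppargc1b (-0.25 to 0.31). The other 478 of 494 values, over 31 named genes, kept their sign and their side of the threshold. Etfdh, Gpd2, Coq6, Vdac2, Vdac3, Sco2, Surf1, Idh3a and Cs were not among these genes, and their dependence on the processing was not examined. Moving Ndufa4 to complex IV gave medians of 0.068 and 0.079 for complexes I and IV, leaving out Atp5s and Atp5sl gave 0.094 for complex V, and leaving out Cox4nb, an alternative chosen after seeing the data, gave 0.063 for complex IV. No paired analysis was possible because mouse codes are not shared between the diets. The values do not give single reads, so counting error could not be separated from differences between mice, and 4 mice per diet limit the precision.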
